A study of Homo sapiens with 8 samples.

Results

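The zinc finger gene clusters of chromosome 19 were examined here as 7 windows of hg19, fixed by position and not by any measured value. The windows were A (9.2 to 9.9 Mb), B (11.6 to 12.8 Mb), C (19.8 to 24.4 Mb), D (35.0 to 38.4 Mb), E (44.3 to 45.0 Mb), F (52.3 to 54.0 Mb) and G (56.2 to 59.1 Mb, the end of the chromosome). A peak of trimethylation of histone H3 at lysine 36 (H3K36me3) was a member when its midpoint lay in a window. This gave 463 control peaks and 335 knockdown peaks, 798 of the 58863 peaks in both lists. The windows took up 15.2 Mb, which is 25.8% of chromosome 19, and were set beside the 1085 control and 773 knockdown peaks on the remaining 43.9 Mb of that chromosome.

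HepG2, an established human hepatocellular carcinoma line, had been infected with lentivirus in the presence of polybrene and selected with puromycin, so all cells carried an integrated short hairpin RNA (shRNA). The control shRNA had no specific target, and the other was directed against SETD2. There were 8 libraries in 4 groups of 2 replicates: H3K36me3 chromatin immunoprecipitate (ChIP) of either condition, and input DNA of either condition. The replicates had been merged before peaks were called, which left 1 peak list per condition. The spread between replicates is therefore unknown, and the conditions could not be tested against each other. The sources used here do not say whether the knockdown cells were 1 clone or a pool, and SETD2 itself was not measured in these files. After filtering, the merged ChIP libraries numbered 47880817 control and 67053273 knockdown tags, and the inputs 67158956 and 69095038.

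SETD2 is the methyltransferase that travels with elongating RNA polymerase II and places H3K36me3 over transcribed gene bodies. Zinc finger proteins with a KRAB domain form a large family of DNA-binding repressors. Their arrays of zinc fingers bind DNA, often in transposable elements, and the KRAB domain recruits TRIM28, which brings in the histone H3 lysine 9 methyltransferase SETDB1. Their genes arose by repeated tandem duplication and lie in long clusters on chromosome 19. In many cell types these genes are known to carry H3K36me3 together with the otherwise repressive H3K9me3, mostly over the last exon, which encodes the fingers.

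The density of these genes can be seen from their order in the RefSeq table of GRCh38.p14, which was used for names and neighbours alone. Of 1451 protein-coding genes on chromosome 19, 266 (18.3%) have a zinc finger symbol, and 188 of them stand in 13 runs of at least 6 with no other protein-coding gene between them. The longest run holds 27 genes, from ZNF737 to ZNF681. Runs of 24 genes extend from ZNF627 to ZNF791 and from ZNF565 to ZNF793, and one of 23 from ZNF772 to ZNF256. No gene coordinates on hg19 were used, so no peak is assigned to a gene here, and the label of the windows as zinc finger clusters was not checked peak by peak.

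In control cells the windows were densely marked. Control peaks covered 3.56 Mb, or 23.4% of the windows, against 14.9% of the rest of chromosome 19. Region lengths were taken in full, with no correction for stretches where tags cannot be placed. The windows thus held 35.2% of the covered length on 25.8% of the chromosome. Window F was the most covered, at 38.0% of its length, followed by E (35.2%), B (30.1%), D (25.6%), G (23.2%) and A (21.3%). Window C, the widest, had 13.1% and was the single window below the 14.9% of the rest of the chromosome.

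Control peaks in the windows were wider than elsewhere on chromosome 19 by their medians. The median width was 4.65 kb (quartiles 2.17 and 10.3 kb), against 3.41 kb (2.00 and 7.05 kb) on the rest of the chromosome and 3.66 kb on all other chromosomes. All 7 window medians exceeded that of the rest, from 4.03 kb in G to 8.52 kb in E. Domains of 20 kb or more made up 37 of the 463 control peaks, or 7.99%, beside 5.86% of all control peaks in the genome and 4.70% on the rest of chromosome 19. Peaks are not replicates, and no difference between the windows and other regions was tested anywhere in these data.

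Fold enrichment, the authors' ratio of ChIP tags over local input background, was also high in the windows. It ranks peaks within a list and had a median of 6.66 in window peaks (quartiles 4.46 and 11.1), 5.75 on the rest of the chromosome and 4.80 on the other chromosomes. Window F had the highest median at 8.82, and window B, at 5.56, was the one below the rest of chromosome 19. Tag density, given throughout as tags per kb per 1000000 filtered tags, had a median of 1.25 in window peaks and 1.14 on the rest of the chromosome. Of the window peaks, 295 (63.7%) had a false discovery rate (FDR) from the caller of at most 5%, beside 50.5% of all control peaks and 59.1% on the rest of the chromosome.

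After SETD2 knockdown the covered length was lower in all 7 windows. It went from 3.56 to 1.74 Mb over the windows together, so the knockdown list covered 48.9% of the control length, against 56.0% on the rest of chromosome 19 and 48.2% on the other chromosomes. That gap from the rest of chromosome 19 depended on the peak limit: the shares were 15.2 and 15.5% with an FDR of 5% or less in both lists, and 34.1 and 34.7% with a fold enrichment of 5 or more. In the full lists the remaining share was uneven among the windows. Window D had the lowest remaining share, at 34.6% (872 kb in the control and 302 kb in the knockdown), and C was next, at 41.3% (601 and 249 kb). B had 45.6% and E 49.1%. The share was above that of the rest of the chromosome in F (57.6%), G (62.5%) and A, where 149 kb stood against 106 kb (71.2%). Thus 4 of the 7 windows lay below the rest of chromosome 19 and 3 above it.

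**Figure D1:**
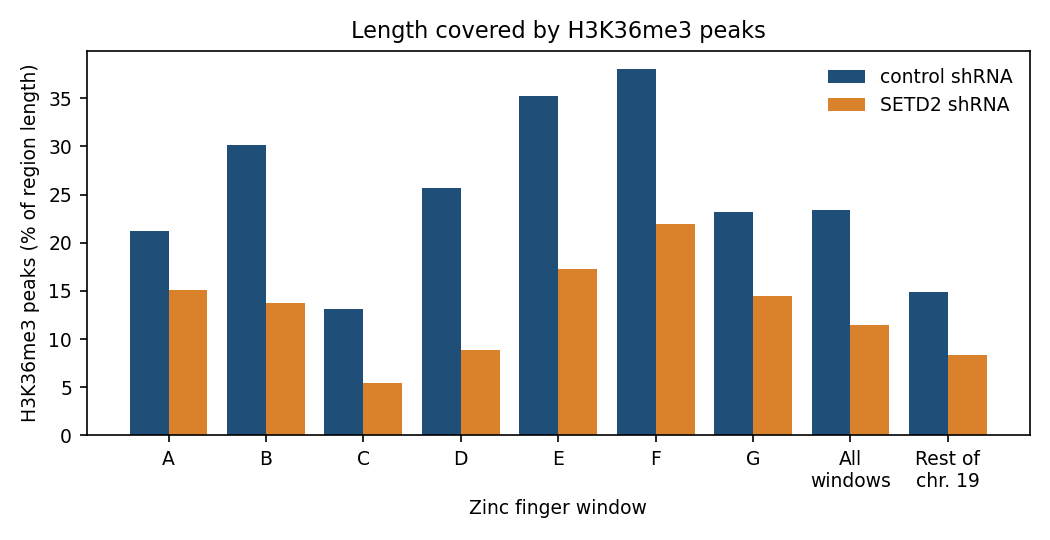
Share of each region's length covered by H3K36me3 peaks (vertical axis, percent) for the 7 windows A to G, all windows together and the rest of chromosome 19, in control shRNA (blue) and SETD2 shRNA cells (orange), 1 peak list each. The knockdown bar is the lower one in every region, with the widest relative gap in D (25.6% and 8.88%) and the narrowest in A (21.3% and 15.1%).

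Window peaks took up 0.733% of the control ChIP tags (exact Clopper-Pearson 95% interval 0.730 to 0.735%) and 0.214% of the knockdown ChIP tags (0.212 to 0.215%). Such intervals cover counting error alone. The knockdown share was 29.1% of the control share in the windows, 36.6% on the rest of chromosome 19 and 30.2% on the other chromosomes. These sums depend on how much length was called: the mean density inside window peaks was 2.06 over 3.56 Mb in control cells and 1.23 over 1.74 Mb in knockdown cells. On the rest of the chromosome the mean densities were 1.89 and 1.24.

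The lists differed less in the number of peaks than in length. The 335 knockdown peaks were 72.4% of the 463 control peaks. Their median width was 3.62 kb, and 8 of them (2.39%) reached 20 kb, beside 1.39% of all knockdown peaks and 1.81% on the rest of chromosome 19. In window D the median width was 4.65 kb in the control and 2.62 kb in the knockdown, while the median in A was the larger in the knockdown list (9.84 kb over 10 peaks, against 4.11 kb over 19). Of the window peaks in the knockdown, 44 (13.1%) had an FDR of 5% or less, beside 5.3% of all knockdown peaks and 86 of 773 (11.1%) on the rest of chromosome 19. Window A held 5 of these among its 10 peaks, and C held 2 among 61.

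Knockdown peaks in the windows lay almost entirely on control peaks. Of the 335, 332 shared at least 1 bp with a control peak (99.1%, 95% interval 97.4 to 99.8%), beside 83% of all knockdown peaks and 96.9% (95.4 to 98.0%) on the rest of chromosome 19. In windows B, C, E and G every knockdown peak did so. The other 3 were modest. One in D, from 35654289 to 35658250, was 82.4 kb from the nearest control peak and had 289 tags, a fold enrichment of 4.93 and an FDR of 20.02%. The other two had 123 tags in A (from 9774455 to 9777107, 0.53 kb from a control peak) and 77 tags in F (from 53391974 to 53393760), with FDRs of 81.0% and 84.8%.

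Conversely, 217 of the 463 control peaks in the windows had a knockdown peak over them. That is 46.9% (42.2 to 51.5%), beside 39.5% of all control peaks and 47.7% (44.7 to 50.8%) on the rest of chromosome 19, so the intervals of the windows and the rest overlapped. The share ran from 37.7% in C and 38.9% in D to 57.7% in E and 58.2% in G. Window control peaks that were kept had a median fold enrichment of 11.6, a median width of 9.92 kb and a median density of 1.89. Those without a knockdown peak had 4.77, 2.38 kb and 0.944.

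The kept share was then compared within classes of peak width. Among control peaks under 5 kb, 36 of 241 in the windows were kept (14.9%, 10.7 to 20.1%), against 25.8% (22.6 to 29.2%) on the rest of the chromosome and 20.7% on the other chromosomes. Among peaks of 5 to 20 kb the kept shares were 78.4% (71.7 to 84.1%) in the windows, 87.0% (83.0 to 90.5%) on the rest and 67.9% (67.0 to 68.8%) on the other chromosomes. Of the peaks of 20 kb or more, 36 of 37 in the windows were kept (97.3%, 85.8 to 99.9%), against 94.1% (83.8 to 98.8%) of 51 on the rest of the chromosome and 83.7% (82.0 to 85.3%) on the other chromosomes. The windows held fewer narrow peaks, 52.1% of their control peaks against 64.7%. When all control peaks were divided into quartile classes of fold enrichment, the windows had a lower kept share than the rest of chromosome 19 in each class. From the lowest class to the highest, the windows kept 2 of 60, 6 of 84, 20 of 100 and 189 of 219, or 86.3%. The rest of the chromosome kept 7 of 120, 32 of 238, 109 of 321 and 370 of 406, or 91.1%. On the other chromosomes the kept shares were 10.4, 17.9, 44.8 and 85.3%, from the lowest class to the highest. The kept share of the windows was thus below that of the other chromosomes in every class but the highest.

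**Figure D2:**
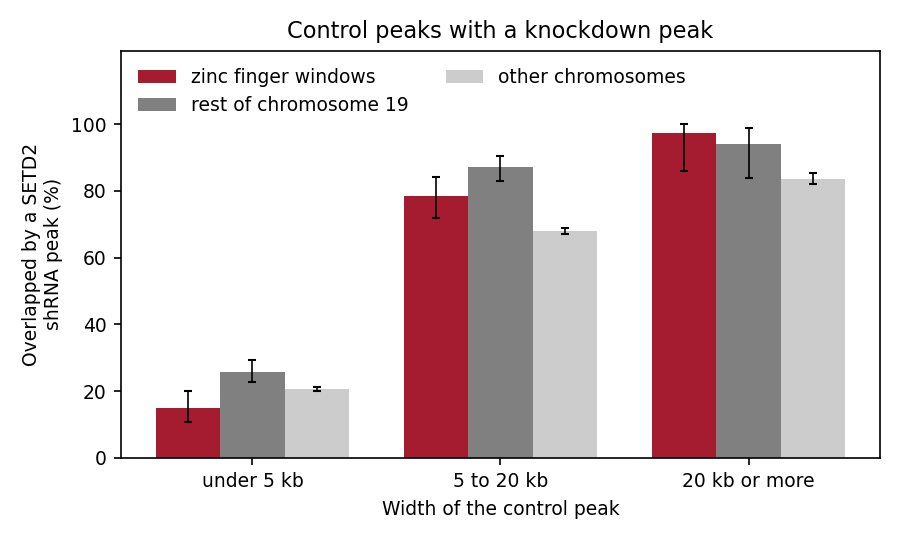
Share of control peaks overlapped by a SETD2 shRNA peak (vertical axis, percent) by width of the control peak, for the zinc finger windows (red), the rest of chromosome 19 (dark grey) and other chromosomes (light grey); bars show the share and error bars the exact 95% binomial interval, which covers counting error alone. The windows stand at 14.9, 78.4 and 97.3% from the narrowest to the widest class.

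Kept domains were often called in pieces. Of the 217 kept control peaks in the windows, 142 had 1 knockdown peak over them and 75 had 2 or more, which is 34.6% (28.3 to 41.3%), beside 26.5% of all kept control peaks and 30.1% (26.2 to 34.3%) on the rest of the chromosome. Windows differed widely: 16 of 29 kept peaks were broken up in C and 16 of 33 in F, but 2 of 31 in B and 1 of 8 in A. The median part of a kept control peak that lay under knockdown peaks was 64.2% in the windows and 76.3% on the rest of the chromosome. Among kept peaks of 5 to 20 kb, 45 of 145 were broken up in the windows, 113 of 289 on the rest of the chromosome and 2131 of 7171 on the other chromosomes. At 20 kb or more the counts were 28 of 36, 39 of 48 and 1228 of 1661. In both of these classes the broken share was lower in the windows than on the rest of the chromosome. Under 5 kb it was higher in the windows, with 2 of 36 against 4 of 181, and 110 of 4396 on the other chromosomes. By window the median part covered was lowest in D (43.5%) and highest in A (93.3%).

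The widest control domains of the windows show both forms of change. The widest, in C from 23515332 to 23573894, spanned 58.6 kb with a density of 2.04 (Poisson 95% interval 1.99 to 2.10). In the knockdown it was covered by 7 peaks over 76.5% of its length, with a summed density of 1.02 (0.99 to 1.06). The next, also in C from 21907917 to 21949291, was 41.4 kb wide with a density of 1.89. Its 5 knockdown peaks covered 35.3% of it and had a density of 0.81.

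The other 3 of the 5 widest were less broken. In D, from 37022670 to 37063243 (40.6 kb), 4 knockdown peaks covered 59.6%, and the density went from 2.14 to 1.19. In G, from 58740551 to 58780766 (40.2 kb), a single knockdown peak covered 91.0%, with densities of 2.64 and 1.58. In F, from 52694740 to 52731311 (36.6 kb), 2 knockdown peaks covered 93.2%, with densities of 2.84 and 1.58. For all 5 the Poisson intervals of control and knockdown densities did not overlap. Those knockdown densities were taken over the called peaks alone, which covered from 35.3 to 93.2% of the control domain. The control densities were taken over the whole domain.

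**Figure D3:**
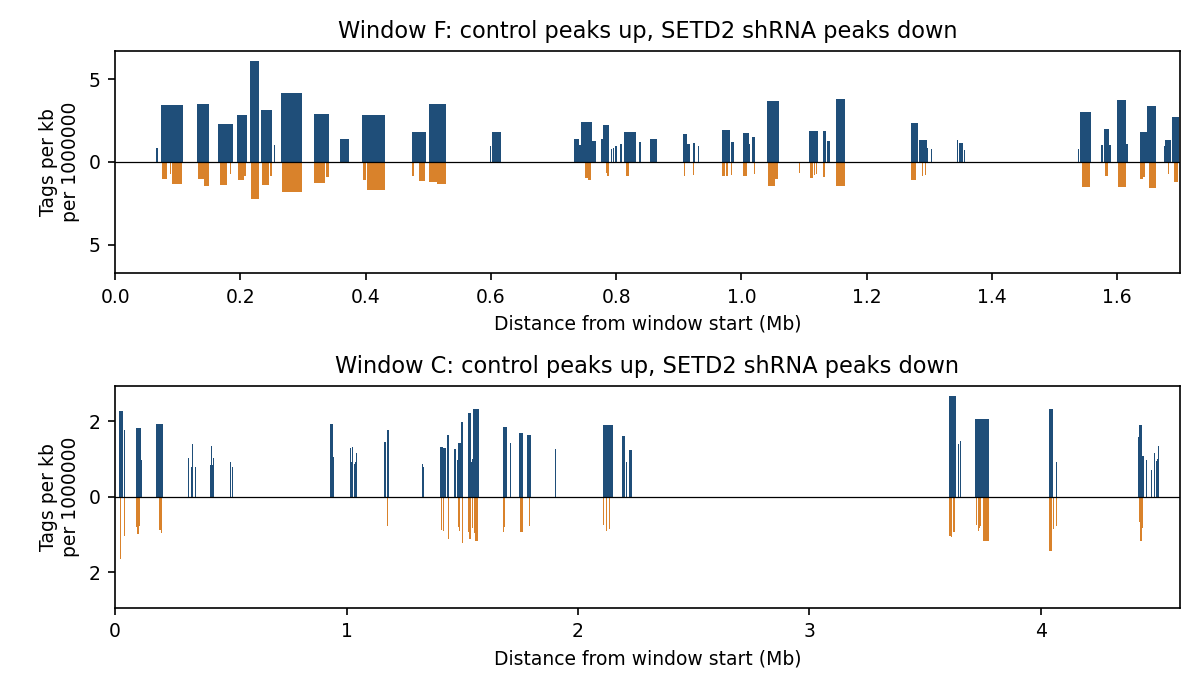
Peaks of windows F (top) and C (bottom) by distance from the window start (horizontal axis, Mb), with bar width equal to peak width and bar height equal to tag density in tags per kb per 1000000 filtered tags; control shRNA peaks point up and SETD2 shRNA peaks point down. Control domains reach a density of 6.10 in F and 2.67 in C, and knockdown peaks beneath them are shorter in height and often narrower.

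Along the windows, peaks were unevenly spread. Of 153 bins of 100 kb, 39 had no peak in either list, and 23 of those were in C. Knockdown peaks covered less than control peaks in 113 bins and more in 1, in window D, which had 4 kb of knockdown peak and no control peak. In 18 bins control peaks had no knockdown peak in the same bin, 8 of them in C and 5 in D. The highest control coverage of a bin was 83.2 kb, in G, and the highest knockdown coverage, 75.1 kb, was also in G. F came next, with maxima of 80.5 and 66.8 kb.

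The strongest control peak of each window was kept in the knockdown list at a lower density. The strongest of all, in A from 9635969 to 9648005, had a fold enrichment of 36.83. In F, the peak from 52515043 to 52530004 had 4367 tags, a density of 6.10 (5.92 to 6.28) and a fold enrichment of 35.93. Its knockdown peak had 1930 tags and a density of 2.25 (2.15 to 2.36), 2.705 times lower. In G, from 58695243 to 58726107, 6201 control tags over 30.9 kb stood against 3697 knockdown tags over 31.0 kb, with densities of 4.196 and 1.78.

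The leading peaks of the other windows had not the same loss. In D, from 37235201 to 37262633, the control density was 3.05 (2.96 to 3.15), and that of the 2 knockdown peaks was 1.07 (1.00 to 1.14), 2.86 times lower, and those peaks covered 45.5% of the control domain. In B, from 12050070 to 12063567, the densities were 2.94 and 1.46. In E, from 44978288 to 44993017, they were 3.76 and 1.77. The smallest difference was in C, from 19818217 to 19832165, with 2.27 (2.16 to 2.39) and 1.63 (1.51 to 1.76), 1.39 times lower, over a knockdown peak that spanned 43.0% of the control peak. Each knockdown density was taken over the called peaks alone, and these covered from 43.0% of the control peak in C to 98.8% in G. The effect of that on the order of the windows was not tested.

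Ranked within the knockdown list, the leading peaks lay on strong control domains as well. In B, C, E and G the knockdown peak with the highest fold enrichment lay on the control peak that led the same window. In A it was another domain, from 9251988 to 9276343, with a fold enrichment of 13.42 and a density of 1.79 against 3.35 in the control peak over it. In D it was the peak from 36709529 to 36729288, with 1.71 against 3.31. In F it was the peak from 52567209 to 52597828, with 3689 tags, a fold enrichment of 9.77 and a density of 1.80 against 4.16. The caller gave that peak an FDR of 88.6%, and the leading knockdown peak of G, with 3697 tags, an FDR of 27.4%, so an FDR limit drops some of the densest wide domains of the knockdown list.

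Tag density was next compared in pairs of control and knockdown peaks that overlapped each other by at least 50%. There were 107 such pairs in the windows, taking in 23.1% of the control peaks there, against 326 pairs (30.05%) on the rest of chromosome 19. All 107 had a lower density in the knockdown, as did 322 of 326 on the rest of the chromosome and 7396 of all 7543 pairs of the genome. Window pairs had a median density of 2.22 for the control peak and 1.16 for the knockdown peak. The log2 ratio of knockdown to control density had a median of -0.90 (quartiles -1.08 and -0.65), which is 1.87 times lower. It was -0.66 (-0.82 and -0.46) on the rest of chromosome 19 and -0.58 on the other chromosomes.

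Of the 107 pairs, 98 (91.6%) passed the test for a lower density in the knockdown and 0 for a higher one, beside 80.5% lower and 0.106% higher over all 7543 pairs of the genome (exact conditional binomial test on tag counts, two-sided, adjusted over all pairs by Benjamini-Hochberg, threshold 0.05). On the rest of chromosome 19, 289 of 326 (88.7%) were lower and 1 was higher. The test sets 1 merged library against another and holds no spread between cultures, and each density was taken over its own peak. In 95 of the 107 window pairs (88.8%) the knockdown peak was narrower than the control peak. The share was 86.2% on the rest of chromosome 19 and 81.0% over all pairs of the genome. The median width of the knockdown peak was 74.0% of the control width in the windows, 80.5% on the rest and 81.0% over all pairs.

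Every window had a lower median ratio than the rest of chromosome 19. The medians were -1.17 in F (18 pairs), -1.03 in B (20), -1.01 in E (6), -0.94 in D (10), -0.80 in A (8), -0.69 in G (34) and -0.68 in C (11). C and G differed from the -0.66 of the rest by less than 0.03, so the gap rested on the other 5 windows. In F the ratios ran from -1.74 to -0.52, and all 18 pairs passed the test. In G they ran from -1.36 to -0.003, and 30 of 34 passed.

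**Figure D4:**
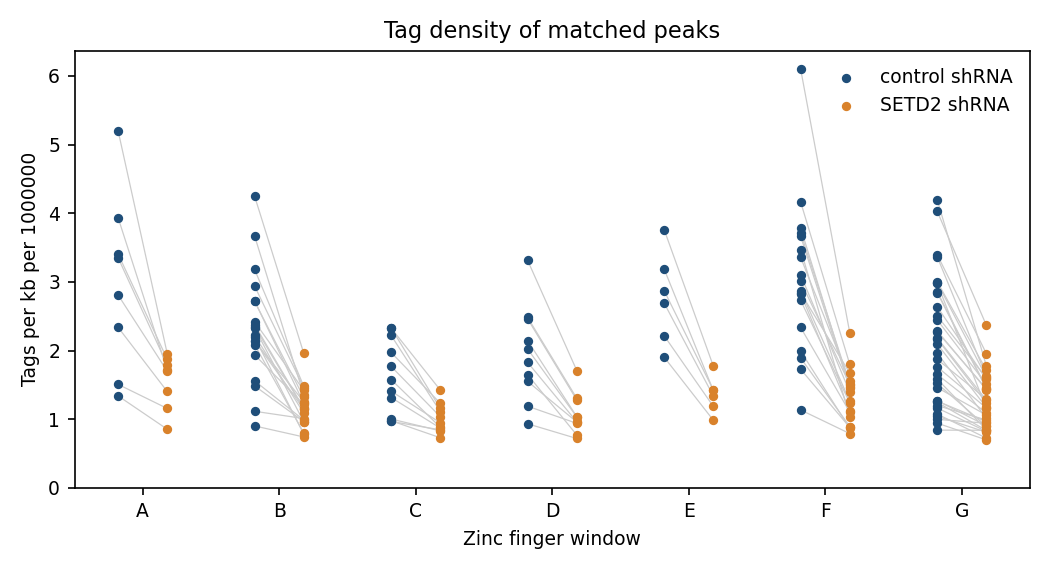
Tag density (vertical axis, tags per kb per 1000000 filtered tags) of the 107 matched pairs by window, control shRNA peaks in blue and SETD2 shRNA peaks in orange, with a grey line joining each pair. Every line falls from control to knockdown, and the knockdown values span a narrower range, from 0.698 to 2.37, than the control values, from 0.841 to 6.10.

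The 5 pairs with the lowest ratios were in F, B and A. In F, from 52431454 to 52449949, the control peak had 3072 tags over 18.5 kb and a density of 3.47, and the knockdown peak had 656 tags over 9.45 kb and a density of 1.04. The log2 ratio was -1.74. Both B pairs, from 12153779 to 12158978 and from 12427714 to 12436600, had ratios of -1.49 and -1.44. The other 2 were the leading control peaks of F and A, at -1.44 and -1.41. In each of these the knockdown peak was narrower than the control peak.

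The 5 pairs with the highest ratios were narrow and weak. In G, from 57385404 to 57386869, 59 control tags and 116 knockdown tags gave densities of 0.841 and 0.839, a log2 ratio of -0.003. The next was also in G, from 58289580 to 58292155, with densities of 0.997 and 0.941 (log2 ratio -0.08, adjusted p = 0.662 in the conditional binomial test). Pairs in B (from 11663270 to 11666023) and C (from 23851347 to 23854196 and from 21342684 to 21347537) had ratios of -0.14, -0.20 and -0.27. These 5 and 4 more made up the 9 window pairs that did not pass the test. All 9 had at most 233 control tags.

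The ratio went with the strength of the control peak, and the windows held more strong peaks. Quartile classes of control fold enrichment were set over all pairs of the genome, and the highest class, from 10.85 upwards, held 64 of the 107 window pairs (59.8%), against 41.7% on the rest of the chromosome and 23.7% on the others. Within that class the median log2 ratio was -1.01 in the windows (quartiles -1.14 and -0.81), -0.79 on the rest of chromosome 19 (-0.91 and -0.68) and -0.88 on the other chromosomes (-1.06 and -0.72). In the third class the windows and the rest stood together, at -0.68 over 28 pairs and -0.68 over 92. In the lower 2 classes the window medians were the less negative, at -0.39 over 8 pairs against -0.50, and at -0.27 over 7 pairs against -0.35.

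In the highest class, all 64 window pairs passed the test, as did all 136 on the rest of the chromosome and 1681 of 1686 on the others. Window medians ran from -1.19 in F (15 pairs) and -1.03 in B (12) to -0.81 in G (16) and -0.74 in C (4). The median of C was thus less negative than the -0.79 of the rest of chromosome 19. Those of C and G were less negative than the -0.88 of the other chromosomes. The window pairs of that class also had the higher fold enrichment, with a median of 18.5 against 15.6 on the rest of the chromosome and 14.3 on the others. The part of this in their lower ratio was not tested. Control tags enter both fold enrichment and the ratio, and the part of this in the relation was not tested.

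**Figure D5:**
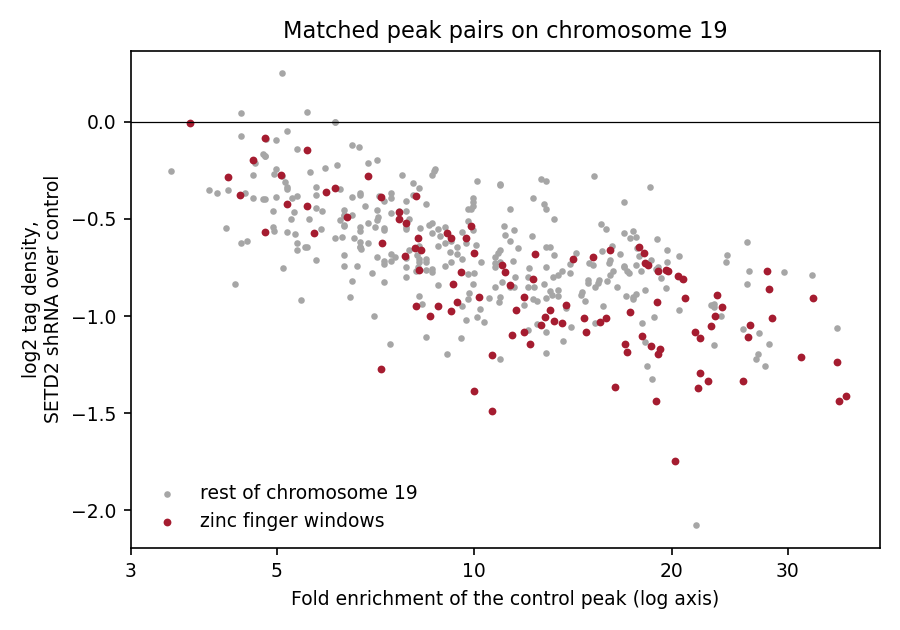
Log2 ratio of tag density, SETD2 shRNA over control (vertical axis), against fold enrichment of the control peak (horizontal log axis) for the 107 matched pairs in the zinc finger windows (red) and the 326 on the rest of chromosome 19 (grey). Ratios are lower at higher fold enrichment in both sets, and all red points lie below 0.

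Some strong control domains had no knockdown peak at all. The 5 with the highest fold enrichment were in D, F and E. The first, in D from 37964744 to 37976964, had 1051 tags over 12.2 kb, a density of 1.80 (1.69 to 1.91) and a fold enrichment of 12.66. In F, the domain from 52902193 to 52915875 had a density of 1.77, and the one from 52658632 to 52673276 had 1.39. In E, from 44600211 to 44612881, the density was 1.75, and in D, from 37653240 to 37662890, it was 1.55. All 5 had a control FDR of at most 0.03%. The tables give no knockdown tags at sites without a knockdown peak, so the level left at these 5 domains is unknown.

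Few peaks lay close to the bounds of the windows. The control peak from 44993602 to 45004070 crossed the end of E and was counted inside, as was the knockdown peak over it. The control peak from 56195687 to 56208902 crossed the start of G and was counted inside, and the one from 12799350 to 12800903 crossed the end of B and was counted outside. A strong control domain lay just outside C, from 19781176 to 19794450, with a fold enrichment of 27.71 and a density of 3.07, against 22.26 and 2.27 for the first control domain inside. At the other end of C the next control peak was 3865 kb away, while the next knockdown peak, from 24524098 to 24528852, was 126 kb away. Whether tags could be placed all along that stretch was not examined.

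Zinc finger genes are near-identical copies in parts, and the sources used here do not state how tags that match several copies were placed. Both lists were made with the same settings. The effect of such tags on peaks in the windows was not tested, and neither was that of the number of copies of chromosome 19 in this line.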

How the data were processed

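H3K36me3 ChIP and input libraries of 2 conditions were used as peak lists. The submitters' processing notes name hg19, Bowtie 1.1.2 and FastQC 0.11.5. Peak calling was by MACS 1.4.2, per the file headers, on 1 merged ChIP against 1 merged input alignment per condition, at a p-value limit of 1e-05, with 1 duplicate tag per position kept. The deposited tag counts are whole ChIP tags per peak, not normalized. The deposited score is the log10 p-value multiplied by minus 10, the deposited fold enrichment is a ratio over local input, and the deposited FDR is in percent. The shorter deposited lists hold the peaks with an FDR of 5% or less.

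Overlaps of at least 1 bp, covered length, tag density, exact intervals, matched pairs (50% of both peaks) and the conditional binomial test were computed with Python 3.11.15, pandas 2.3.3, NumPy 2.4.6 and SciPy 1.17.1, plotted with matplotlib 3.10.9, and tested on simulated data. Depth was 47880817 and 67053273 filtered ChIP tags. The windows, lists and tests were chosen with earlier results of these data known. Named peaks were the leading ones by fold enrichment in each window and list, and the 5 widest, the 5 strongest without a counterpart and the 5 lowest and highest pairs. Results by gene, TRIM28 and SETDB1 among them, were left out, for want of gene coordinates on this build. Sequences of the peaks were not used here for the same reason.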

Additional observations from a re-analysis of the deposited data

How the results depend on the processing

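No paired analysis was possible because replicates had been merged before peak calling; for the same reason none could be left out. With an FDR of 5% or less the windows kept 295 control and 44 knockdown peaks and the rest of chromosome 19 kept 641 and 86; the covered length remaining was 15.2 and 15.5%, the kept share 14.9 and 12.6%, the knockdown peaks on control peaks 100 and 98.8%, and the median log2 ratio of pairs -0.96 and -0.75. Control medians were then 8.15 and 5.80 kb, 9.22 and 8.06 in fold enrichment and 1.61 and 1.43 in density; on all other chromosomes, without that limit, they were 3.66 kb, 4.80 and 1.099. With a fold enrichment of 5 or more there were 307 and 125 peaks in the windows and 688 and 236 on the rest, with lengths of 34.1 and 34.7% and kept shares of 36.2 and 29.5%. Under both limits the length remaining in the windows was close to that on the rest of chromosome 19, and the kept share was the higher in the windows; the cause was not tested. A score of 100 or more gave lengths of 46.4 and 51.8%. Merging peaks within 3000 bp gave 285 control peaks in the windows and 607 control and 477 knockdown peaks on the rest, lengths of 49.6 and 56.5% and kept shares of 61.4 and 61.6%. Whole peaks inside the bounds gave a length of 48.96% in the windows. Kept shares were 31.5 and 39.1% when 50% of the control peak had to be overlapped, and 23.1 and 30.05% when both peaks did. By width they were 14.9, 78.4 and 97.3% in the windows and 25.8, 87.0 and 94.1% on the rest.

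The median log2 ratio of pairs was -0.94 and -0.71 with an overlap of 80%, -0.88 and -0.65 with all tags as depth, and -1.20 and -0.99 with the density outside peaks (0.235 in the control, 0.337 in the knockdown) taken off. By quartile class of fold enrichment it was -0.27, -0.39, -0.68 and -1.01 in the windows and -0.35, -0.50, -0.68 and -0.79 on the rest. With an overlap of 80%, 37 of 38 pairs in the windows and 137 of 154 on the rest were lower, and 0 on the rest were higher, as with an adjusted p under 0.01 (0). With all tags as depth the window peaks held 0.636 and 0.188% of the tags. Leaving out each window in turn gave 350 to 444 control peaks, 258 to 325 knockdown peaks, a length of 45.7 to 53.6%, a kept share of 43.8 to 49.4% and a median ratio of -0.998 to -0.80. The lower median ratio of the windows together, against the rest, held under each setting over all pairs and in the highest class. Window C (4 pairs) was the exception in the highest class, at -0.74 against -0.79. In the lowest 2 classes the order was reversed, and in the third class both medians were -0.68.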

Other observations

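Neighbouring control peaks in the windows were separated by a median of 5.67 kb (quartiles 1.402 and 19.1 kb), against 4.32 kb (0.77 and 19.5 kb) on the rest of chromosome 19. In the knockdown list the median gaps were 9.002 and 6.003 kb. In window B the median gap went from 6.43 kb over 65 gaps in the control to 26.7 kb over 35 gaps in the knockdown, and in A from 7.23 to 23.9 kb. In C it was 4.08 kb in the control and 3.99 kb in the knockdown. Gaps of 3 kb or less made up 38.8% of the control gaps in the windows and 44.3% of those on the rest of the chromosome. The longest gap in the windows was in C, with 1368 kb in the control and 1467 kb in the knockdown.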
